A study of Capra hircus with 9 samples.

Results

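Embryonic genome activation (EGA) is the step at which an early embryo begins to transcribe its own genes. Until then the embryo relies on RNA that was stored in the oocyte, and much of this maternal RNA is degraded as new transcripts appear. After somatic cell nuclear transfer (SCNT) the same step has to be carried out by the nucleus of a differentiated cell placed in an enucleated oocyte. The mRNAs described here were close to absent in goat in vitro-fertilized two-cell embryos (IVF-2c) and abundant at similar levels in both IVF eight-cell (IVF-8c) and SCNT eight-cell (SCNT-8c) embryos.

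The members were chosen from the deposited values of all 3 embryo libraries. A predicted RefSeq mRNA (accession beginning with XM_) was included when it was below 1 FPKM in IVF-2c, at or above 20 FPKM in each eight-cell library, and when the absolute log2 ratio of FPKM + 0.1 between IVF-8c and SCNT-8c was at most 1. FPKM is the number of fragments per kilobase of transcript, scaled to a fixed number of mapped fragments per library. Of the 29872 XM_ transcripts in the table, 56 met the rule, and none of the 275 curated NM_ transcripts met the same limits. All differences that the rule used are given below as descriptions, without a test.

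Each condition was represented by 1 library of pooled embryos. IVF-2c and IVF-8c embryos came from in vitro-matured oocytes fertilized in vitro, and SCNT-8c embryos from in vitro-matured, enucleated oocytes fused with goat fetal fibroblasts of 1 female Saanen fetus, activated chemically and cultured in the same embryo medium. The series also holds 6 fibroblast libraries, which were not used here because their table lists genes by running numbers without names. With 1 library per condition, no difference between the embryos has a replicate check in these sequencing data. The method of embryo production cannot be told apart from the pool and library.

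A gene name was found for 34 of the 56 members by accession without its version number in the RefSeq table of the goat assembly ARS1.2, of which 1 matched with the version. The 34 transcripts belonged to 34 different genes. Of these, 19 had a gene symbol, 15 had only a LOC number, and 22 members had no name in the table and are given by accession. Among all mRNAs of the table, 44.8% were matched. Over all mRNAs the values summed to 1395697, 1128122 and 1084391 FPKM (order IVF-2c, IVF-8c, SCNT-8c), and the depth of the libraries is unknown. Of 25 transcripts of maternal oocyte factors matched, 24 reached 1 FPKM in a library. Because FPKM is a share of the RNA of a pool, fewer cells that express a gene and less RNA per cell cannot be told apart. The values are RNA levels, and transcription itself was not measured.

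In IVF-2c the members ranged from 0 to 0.995 FPKM with a median of 0.108 FPKM, and 14 of them were listed at 0. The range in IVF-8c was 22.9 to 3265 FPKM (median 46.8), and that in SCNT-8c was 20.1 to 1648 FPKM (median 40.2). Thus the members were spread widely in abundance within each eight-cell library, with 12 of them at 100 FPKM or more in both and 27 below 50 FPKM in both. The highest member was number 37 of all 30147 mRNAs in IVF-8c and number 67 in SCNT-8c. Together the members made up 0.00111% of the summed mRNA FPKM of IVF-2c, 0.870% of IVF-8c and 0.620% of SCNT-8c. A single transcript, LOC102170138, held 33.3% of the members' sum in IVF-8c and 24.5% in SCNT-8c. Without it the members' share was 0.580% and 0.468% of the respective libraries.

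**Figure D1:**
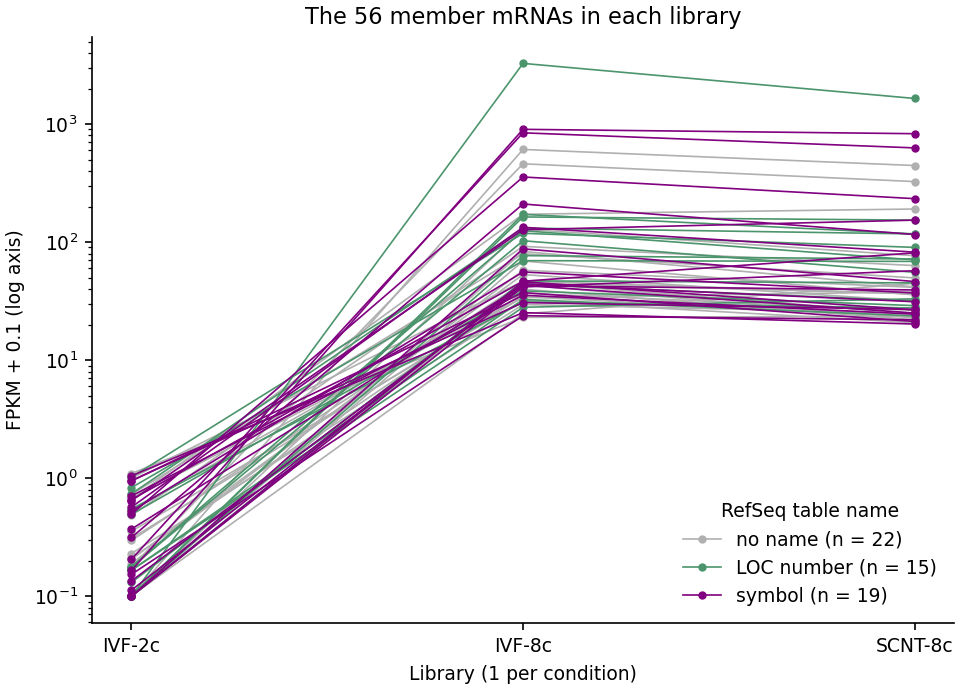
FPKM + 0.1 on a log axis for each of the 56 member mRNAs in the 3 embryo libraries, with 1 line per transcript coloured by the kind of name found in the RefSeq table. The lines join values of the same transcript and are not a time course, and all members lie below 1 FPKM in IVF-2c and between 20.1 and 3265 FPKM in the eight-cell libraries.

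By construction, all 56 members were more than 4-fold higher (a log2 ratio above 2, and 1 FPKM or more in the higher library) in IVF-8c than in IVF-2c, against 5.48% of all 30147 mRNAs. The same held for SCNT-8c against IVF-2c, where 3.95% of all mRNAs passed, and 3.24% passed in both. The members' median log2 ratio to IVF-2c was 7.90 in IVF-8c and 7.71 in SCNT-8c. For comparison, these medians over the 14235 mRNAs with 1 FPKM or more in any library were -0.40 and -0.32. For members listed at 0 in IVF-2c the pseudocount sets the size of the ratio, and without those 14 transcripts the members' medians were 7.34 and 7.00. The pseudocount also affects the other members, whose IVF-2c values were low. With a pseudocount of 1 in place of 0.1, the medians over all 56 members were 5.51 and 5.24.

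The first group of members with known functions acts in the nucleus. ARGFX, a paired-like homeobox gene of a family known for expression in preimplantation embryos, was at 0.106 FPKM at the two-cell stage, 842.8 in IVF-8c and 628 in SCNT-8c. It was the second most abundant member with a gene symbol. KLF17, a zinc finger transcription factor of the Krüppel-like family, was listed at 0 at the two-cell stage and reached 87.6 FPKM in IVF-8c and 46.2 in SCNT-8c. Its eight-cell log2 ratio (IVF-8c over SCNT-8c) of 0.92 was close to the upper limit of the rule. ZNF394, a zinc finger protein, had nearly equal values in the eight-cell libraries, at 0.0347, 42.5 and 39.2 FPKM (3 values are always given in the order IVF-2c, IVF-8c, SCNT-8c). HMGN5, which binds nucleosomes and affects chromatin compaction, was at 0.425, 55.8 and 36.9 FPKM. A second HMGN5 transcript outside the rule followed the same order, at 0.452, 21.6 and 9.68 FPKM, while its relative HMGN3 was abundant in all 3 libraries, at 164.6, 177.7 and 211.6 FPKM.

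Other matched early embryo transcription factors show where ARGFX and KLF17 lie among genes of similar roles. Of the 65 genes in this list, 15 were matched, with 17 transcripts. ARGFX and KLF17 are among these by the rule. Of the 15 transcripts that were not members, 6 were more than 4-fold higher in both eight-cell libraries than in IVF-2c, against 3.97% of all matched mRNAs. None was lower in both, which for 15 transcripts is close to the 1.44% of all mRNAs. The list was chosen with earlier results of these data known, so these counts are a description and not independent support. ID2, an inhibitor of basic helix-loop-helix factors, exceeded the IVF-2c limit with 1.91 FPKM at the two-cell stage, 805.9 in IVF-8c and 418.9 in SCNT-8c. FOS, a subunit of the AP-1 factor, and DPPA2, a factor of pluripotent and early embryonic cells, were low in IVF-2c but had SCNT-8c values too low for the rule. FOS was at 0.0543, 48.0 and 15.6 FPKM and DPPA2 at 0.654, 34.7 and 10.4 FPKM. In contrast, the pluripotency factors NANOG and SOX2 stayed below 2 FPKM in every library.

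**Figure D2:**
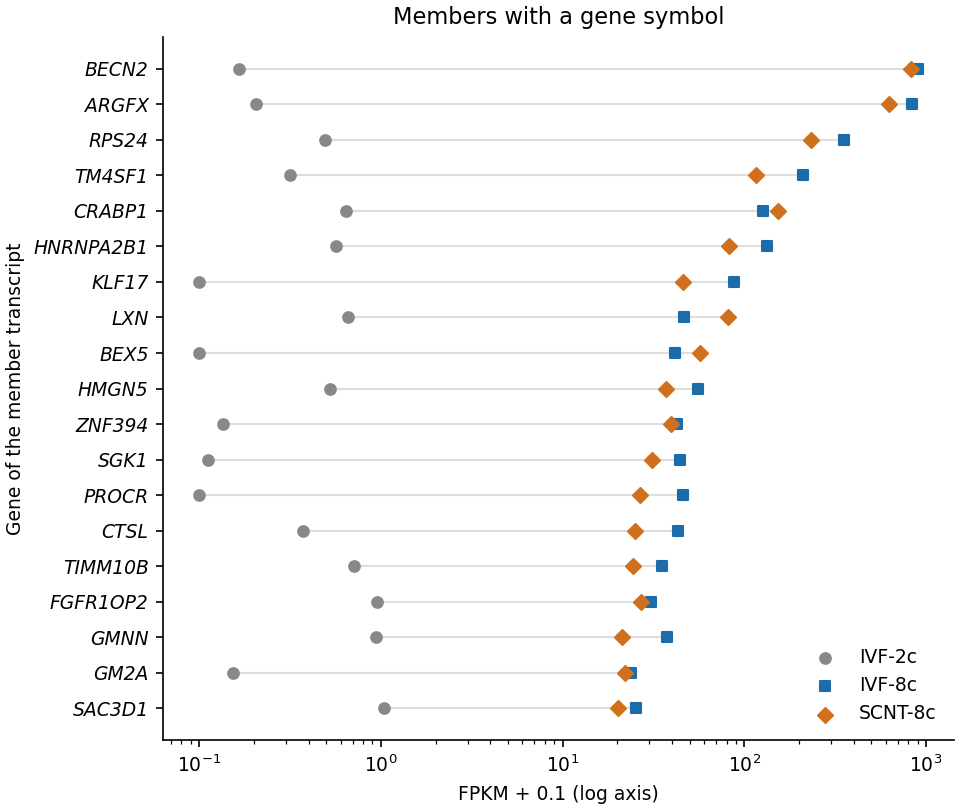
FPKM + 0.1 on a log axis for the 19 members with a gene symbol, ordered by their mean log2 level over the eight-cell libraries, with 1 point for each library. Grey circles (IVF-2c) lie far to the left of the blue squares (IVF-8c) and orange diamonds (SCNT-8c), and CRABP1, LXN and BEX5 are the 3 genes with the SCNT-8c point to the right of the IVF-8c point.

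Members connected with autophagy and the lysosome included the most abundant one with a gene symbol. BECN2, a relative of the autophagy protein Beclin 1, was at 0.0652 FPKM at the two-cell stage, 902 in IVF-8c and 828.5 in SCNT-8c. The eight-cell libraries thus differed by a log2 ratio of 0.12. BECN1 itself had another pattern, with 20.5, 12.3 and 14.3 FPKM. CTSL, a cysteine protease of the lysosome, was at 0.271, 42.9 and 25.0 FPKM, with a log2 ratio between the eight-cell libraries of 0.78. No transcript of the other matched cathepsins, CTSK, CTSS and CTSW, reached 1 FPKM in any library. GM2A, the activator protein for the breakdown of GM2 ganglioside, was the lowest of these genes, at 0.0532, 23.7 and 21.9 FPKM.

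Several members encode proteins of the cell surface or of signalling. TM4SF1, a membrane protein with 4 membrane-spanning segments that is related to the tetraspanins, was at 0.214 FPKM at the two-cell stage, 210.1 in IVF-8c and 115.8 in SCNT-8c. The matched transcripts of its relatives TM4SF4, TM4SF18, TM4SF19 and TM4SF20 were all below 1 FPKM in the 3 libraries. PROCR, the receptor of activated protein C, was listed at 0 at the two-cell stage and reached 46.0 FPKM in IVF-8c and 26.5 in SCNT-8c. SGK1, a kinase regulated by glucocorticoids, was at 0.0125, 44.3 and 31.1 FPKM, and no SGK2 transcript reached 1 FPKM. CRABP1, which binds retinoic acid in the cytoplasm, was at 0.545 FPKM at the two-cell stage, 127.2 in IVF-8c and 153.4 in SCNT-8c. LXN, an inhibitor of carboxypeptidases, showed the largest excess in SCNT-8c among members with a symbol, at 0.558, 46.5 and 80.9 FPKM. BEX5, an X-linked gene of the brain-expressed family, was likewise higher in SCNT-8c (57.1 FPKM) than in IVF-8c (41.6 FPKM), and was listed at 0 in IVF-2c.

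RNA processing, translation and the mitochondrion were represented by a few members. The RPS24 transcript XM_005699248.2, which encodes a protein of the small ribosomal subunit, was at 0.394 FPKM at the two-cell stage, 355.9 in IVF-8c and 233.2 in SCNT-8c. RPS24 supplied the only member among the 70 matched transcripts of 57 ribosomal protein genes (symbols beginning with RPS or RPL), although 20 of the other 69 were more than 4-fold higher in both eight-cell libraries than in IVF-2c, against 3.97% of all matched mRNAs. At least 1 FPKM was already present in IVF-2c for 66 of the 70 transcripts. RPL26, for example, was at 46.7, 998.2 and 899.5 FPKM, and RPS27 at 30.0, 501.7 and 397.2 FPKM. Reads of ribosomal protein genes may be shared with processed copies elsewhere in the genome, so that these values are less certain than those of unique genes. The HNRNPA2B1 transcript XM_005679284.2, from a gene whose protein binds and processes pre-mRNA, was at 0.469, 133.3 and 82.1 FPKM. TIMM10B, a component of the protein import machinery of the inner mitochondrial membrane, was at 0.608, 35.4 and 24.4 FPKM. TOMM5, of the import complex of the outer membrane, was also higher in both eight-cell libraries, but its 2 transcripts were at 35.7 and 1.81 FPKM in IVF-2c and thus outside the rule.

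The remaining members with a symbol were of low abundance. The GMNN transcript XM_013974110.1, from the gene of geminin, which blocks repeated licensing of DNA replication, was at 0.847 FPKM at the two-cell stage, 37.3 in IVF-8c and 21.1 in SCNT-8c. FGFR1OP2, whose protein associates with the STRIPAK phosphatase complex, was represented by XM_005680734.2 with 0.853, 30.6 and 26.8 FPKM. SAC3D1, which contains a SAC3 domain, lay near the limits of the rule in IVF-2c and in SCNT-8c with 0.947, 25.2 and 20.1 FPKM.

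Next, the members were compared with the other matched transcripts of their genes, which the rule had not used. Of the 34 genes, 25 had no matched transcript other than the member and 9 had from 2 to 5 in all. Since only 44.8% of all mRNAs were matched to a gene, further transcripts of these genes may be among the unmatched ones. When FPKM was summed over the matched transcripts of each of the 9 genes, 5 still met the rule. The 4 exceptions were RPS24, HNRNPA2B1, FGFR1OP2 and GMNN, whose summed level in IVF-2c was 58.8, 58.2, 28.6 and 437.1 FPKM. For these 4 genes the transcript and not the gene was close to absent in two-cell embryos.

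The size of this difference varied between the 4 genes. The RPS24 member made up 0.671% of the gene's sum in IVF-2c but 83.4% in IVF-8c and 80.6% in SCNT-8c. In contrast, XM_005699253.2 had 41.3, 55.4 and 46.8 FPKM in the 3 libraries. The RPS24 sum was still higher in the eight-cell libraries, 2.86 above IVF-2c on the log2 scale in IVF-8c and 2.30 in SCNT-8c. For HNRNPA2B1 the member's share was 0.806% at the two-cell stage, but 29.8% in IVF-8c and 23.0% in SCNT-8c. Here the log2 ratios of the gene's sum over IVF-2c were 2.94 and 2.61. The FGFR1OP2 member was 2.98% of the sum in IVF-2c and 49.9% and 51.0% in the eight-cell libraries, beside a second transcript with 27.8, 30.8 and 25.7 FPKM. The GMNN member stayed a minor transcript, at 0.194%, 2.58% and 1.61% of a sum that was itself high in IVF-2c. The values of transcripts from the same gene are estimates that divide shared fragments, and with 1 library each their error is unknown. For TM4SF1, HMGN5, PROCR, BEX5 and LOC102180894 the sums of the 2 or 3 transcripts kept the rule.

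**Figure D3:**
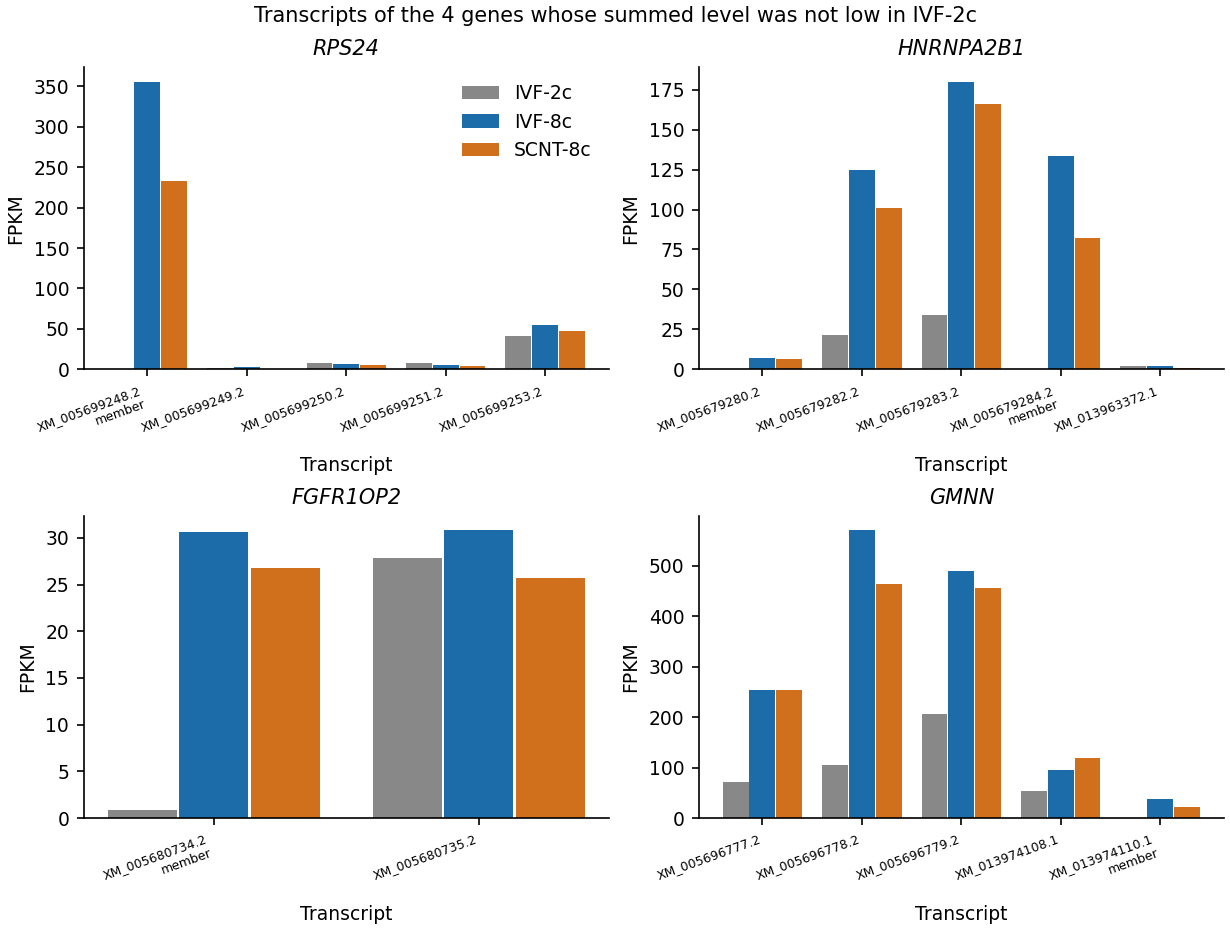
FPKM on a linear axis for every listed transcript of RPS24, HNRNPA2B1, FGFR1OP2 and GMNN, with bars for the 3 embryo libraries (1 library each, no error bars) and the member transcript marked. In each gene the member has almost no bar in IVF-2c while at least 1 other transcript does, between 27.8 FPKM for FGFR1OP2 and 205.9 FPKM for GMNN at the highest.

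Most members had no gene symbol, 15 with a LOC number and 22 without a name, and some of these were among the most abundant. LOC102170138 (XM_005682471.2) was the highest of all, listed at 0 in IVF-2c and at 3265 FPKM in IVF-8c and 1648 in SCNT-8c. XM_013971424.1 was listed at 0 in IVF-2c and was at 609.3 and 445.3 FPKM in the eight-cell libraries, and XM_005692602.2 was at 0.07695, 460.4 and 325.5 FPKM. XM_005693055.1 had 0.562 FPKM at the two-cell stage, 172.1 in IVF-8c and 190.6 in SCNT-8c. LOC102188186 was listed at 0 in IVF-2c and was at 163.2 and 153.4 FPKM. The 15 members with LOC numbers had medians of 76.7 FPKM in IVF-8c and 68.5 in SCNT-8c. The 22 members without a name had medians of 46.0 and 36.3 FPKM, and the 19 with a symbol had medians of 46.0 and 39.2 FPKM. What the LOC genes encode was not analysed here, and reads shared among near-identical copies of such genes cannot be assigned with certainty.

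The gene order of ARS1.2 placed 3 LOC members close together. LOC102176812, LOC102178473 and LOC102180145 lie in 1 run of 11 protein-coding genes that all carry LOC numbers. LOC102176812 was at 0.0774, 124.8 and 70.6 FPKM. LOC102178473, at 171.5 and 117.2 FPKM, and LOC102180145, at 76.7 and 71.8 FPKM in IVF-8c and SCNT-8c, were listed at 0 in IVF-2c. The ends of the run were set by the outermost members. Of the 11 genes, 7 had a matched transcript. The 4 of these that were not members were more than 4-fold higher in both eight-cell libraries than in IVF-2c, against 3.97% of all matched mRNAs. Their levels were lower than those of the members. LOC102179871 and LOC102178197 were listed at 0 in IVF-2c and reached 31.8 and 27.4 FPKM in IVF-8c but 18.8 and 11.2 FPKM in SCNT-8c. LOC102177081 was at 0.173, 9.18 and 9.33 FPKM, and LOC102179309 at 0.0288, 10.5 and 1.05 FPKM. Beyond the run, the next gene LOC102180412 was at 0.498, 29.6 and 6.54 FPKM, whereas LOC102180693 after it was at 0.119 FPKM in IVF-2c and listed at 0 in both eight-cell libraries. The 4 LOC genes listed before the run had no matched transcript. For the other named members that could be placed, no second named member was found among the 10 protein-coding genes on either side. The 22 members without a name could not be placed in the gene order, and for some named members only 5 of 20 neighbours had a matched transcript, so that neighbouring members may have been missed. The 2 members LOC108633161 and LOC102181286, whose chromosome is not given, were not examined.

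The rule allowed the members to differ by a factor of 2 between the eight-cell libraries, and within this limit they were not evenly spread. IVF-8c was higher than SCNT-8c in 48 of 56 members and lower in 8, with a median log2 ratio of 0.47 and quartiles of 0.12 and 0.75. Among the 3021 XM_ transcripts within the same limits in the eight-cell libraries but at any level in IVF-2c, 48.1% were higher in IVF-8c. The excess was found in 16 of 19 members with a symbol, in 14 of 15 with a LOC number and in 18 of 22 without a name. The values were closest for 15 members with an absolute log2 ratio of at most 0.25, such as LOC102190016 (69.5 and 68.5 FPKM in IVF-8c and SCNT-8c), GM2A and BECN2. In 26 members the log2 ratio was above 0.5. At the upper end XM_013969553.1 had 83.2 FPKM in IVF-8c and 41.6 in SCNT-8c (log2 ratio 0.997), followed by LOC102170138 (0.99) and XM_013962853.1 (0.95). When the libraries were scaled by median ratios, these 3 transcripts passed the limit with log2 ratios of 1.002 to 1.046 and were no longer members. At the other end, only XM_013971048.1 (24.6 and 44.7 FPKM, log2 ratio -0.86) and LXN (-0.80) were below -0.5.

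The ratio of the eight-cell libraries changed with the level in IVF-2c. Among the 72 transcripts with 1 to 5 FPKM in IVF-2c that otherwise met the limits, the median of this ratio was 0.22 and 72.2% were higher in IVF-8c. It was 0.11 with 59.6% higher among 255 transcripts with 5 to 20 FPKM in IVF-2c. For 1513 transcripts at 20 to 100 FPKM and 1125 at 100 FPKM or more, the medians were -0.05 and -0.03, with 681 and 519 transcripts higher in IVF-8c. Scaling the libraries by median ratios added 0.05 to each ratio, which put the last 2 medians at 0.00 and 0.01 and the members' median at 0.52. These medians come from the same pair of libraries, and transcripts are not replicates of a condition, so no test was made.

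**Figure D4:**
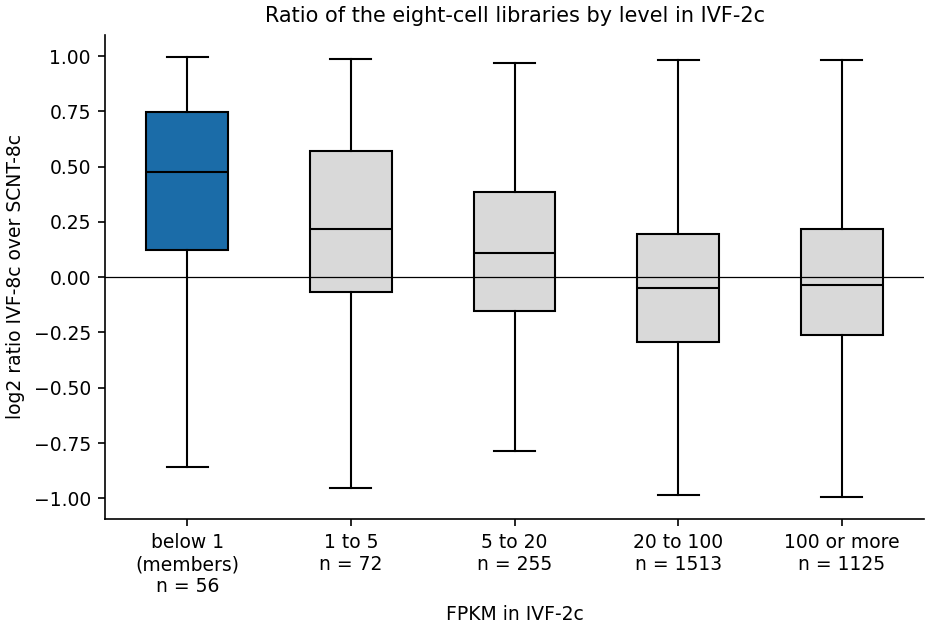
Log2 ratio of FPKM + 0.1 between IVF-8c and SCNT-8c for XM_ transcripts that reached 20 FPKM in each eight-cell library and lay within an absolute log2 ratio of 1, in 5 classes by FPKM in IVF-2c. Boxes show the quartiles and median and whiskers the full range, and the medians go from 0.47 in the members to 0.22, 0.11, -0.05 and -0.03 as the level in IVF-2c increases.

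The members were part of a larger set of mRNAs that were low at the two-cell and abundant at the eight-cell stage. In all, 145 XM_ transcripts were below 1 FPKM in IVF-2c and at 20 FPKM or more in at least 1 of the eight-cell pools, and the members were 38.6% of them. Of these 145, 20 FPKM was reached by 136 in IVF-8c, by 88 in SCNT-8c and by 79 in both. Of these 79 transcripts, 18 had a log2 ratio above 1 and 5 below -1. A further 19 transcripts were within the ratio limit but under 20 FPKM in 1 library, which was SCNT-8c for 16 of them. Over all 145 transcripts the median log2 ratio was 0.79, and 123 were higher in IVF-8c.

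**Figure D5:**
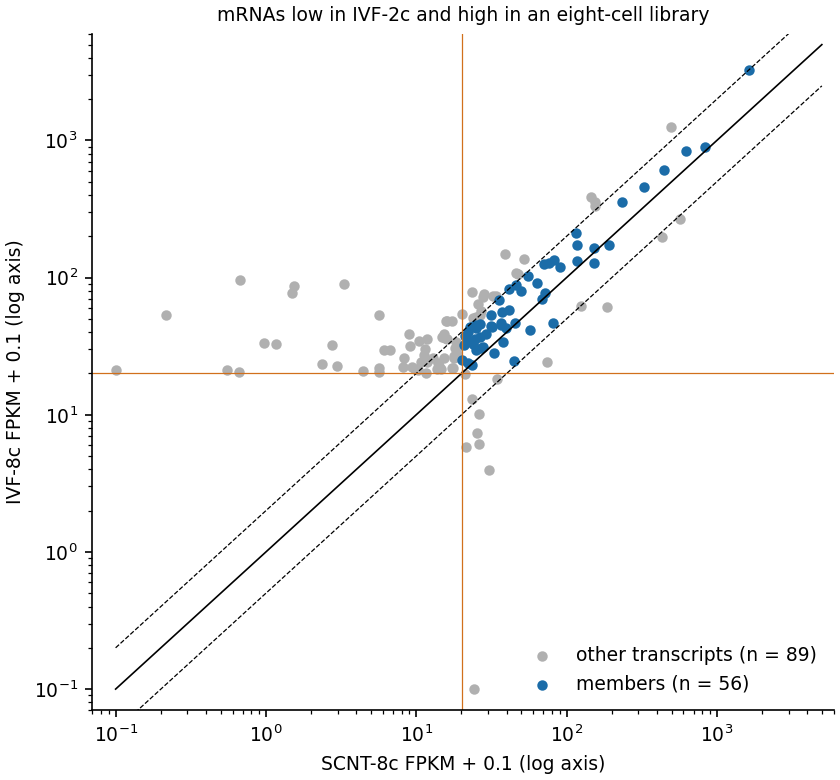
FPKM + 0.1 in IVF-8c against SCNT-8c, both on log axes, for the 145 XM_ transcripts below 1 FPKM in IVF-2c and at 20 FPKM or more in at least 1 eight-cell library. The solid line marks equal values, dashed lines a factor of 2, and orange lines the limit of 20 FPKM. The 56 members lie between the dashed lines, with 48 above the solid line, and the other 89 transcripts lie mostly above the upper dashed line or left of the vertical limit.

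The limits of the rule cut through a continuous range of values. Just inside the limit for IVF-2c were XM_013967651.1 (0.995 FPKM) and SAC3D1 (0.947), and just outside were SUPT4H1 (1.02 FPKM), a subunit of the elongation factor DSIF, and XM_013973215.1 (1.04). SUPT4H1 had 321.9 FPKM in IVF-8c and 177.8 in SCNT-8c, which would have placed it among the most abundant members with a symbol. For the minimum in the eight-cell libraries, SAC3D1 and XM_005700354.2 (20.1 and 20.6 FPKM in SCNT-8c) were inside. XM_005686699.1 (19.9 FPKM in IVF-8c) and MZT1 (19.1 FPKM in SCNT-8c) were outside. For the ratio, XM_013969553.1 (0.997) and LOC102170138 (0.987) were inside, and XM_013971087.1 (1.004) and LOC102188237 (-1.010) were outside.

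Pooled embryos can carry RNA of other cells, and the donor cells of SCNT were fibroblasts. In the fibroblast list, 10 of 13 genes were matched with 20 transcripts, whose summed level was 155.3 FPKM at the two-cell stage, 89.9 in IVF-8c and 107.1 in SCNT-8c. Of these transcripts 12 were listed at 0 in IVF-2c and 5 in each eight-cell library. The decorin transcript NM_001285555.1 held most of the sum, with 113.5, 54.1 and 54.1 FPKM, and all 8 periostin (POSTN) transcripts were below 1 FPKM. In this list 5 of the 20 transcripts were more than 4-fold higher in SCNT-8c than in IVF-2c, against 3.95% of all mRNAs, and 3 were so in IVF-8c, against 5.48%. LUM (lumican) was at 3.56, 9.53 and 15.7 FPKM and COL3A1, a fibrillar collagen, at 0.00649, 0.650 and 1.43 FPKM. THY1 was listed at 0 in IVF-2c and was at 1.52 and 1.05 FPKM in the eight-cell libraries, and the more abundant PDGFRA transcript was listed at 0 and was at 1.56 and 1.37 FPKM. Cumulus and granulosa cell genes (6 of 10 matched, 8 transcripts) summed to 66.4, 59.8 and 85.4 FPKM, and sperm genes (3 of 8 matched, 6 transcripts) to 0.0822, 4.29 and 3.18 FPKM. Among the cumulus genes TNFAIP6 was higher in both eight-cell libraries, at 2.22, 26.6 and 51.2 FPKM. STAR held most of the IVF-2c sum and was lower in both, by more than 4-fold only in IVF-8c, at 47.2, 11.4 and 12.4 FPKM. HAS2 changed less, at 16.7, 20.7 and 21.3 FPKM, while FSHR, CYP19A1 and FST transcripts stayed below 1 FPKM. None of these transcripts was a member, and the part of such cells in the members' values was not tested.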

How the data were processed

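Embryo RNA was sequenced as 1 library per condition from pooled embryos, after cDNA amplification with a low-input kit. The authors deposited FPKM values per transcript. Per the submitters' processing notes, TopHat2 2.0.12, Bowtie2 2.2.3, Cufflinks 2.1.1 and Cuffdiff were used, and the genome build and annotation release are not given in the sources used here. Columns without a sample numbered 0. FPKM removes transcript length and library size, but does not place libraries on 1 scale when their composition differs.

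Log2 ratios of FPKM + 0.1 were calculated in numpy 2.4.6 and pandas 2.3.3 under Python 3.11.15. No test was possible on single libraries. The selection was tested on simulated data built to meet or to break the rule. That checked the code only and says nothing about the members. The members and the 16 gene lists were chosen with earlier results of these data known. Gene families were drawn by symbol after the members were known. Genes named in the text are all members with a symbol, the 5 highest members without one, the 3 members at either end of the ratio between eight-cell libraries, the transcripts next to each limit, and examples from lists, families and the run of neighbouring genes, which were chosen after their values were seen. Alternatives were other limits, pseudocounts and a median-ratio scaling. A planned search for motifs in promoters was not run, because sequences were not used here. The lncRNA and fibroblast tables, also FPKM, were not used.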

Additional observations from a re-analysis of the deposited data

How the results depend on the processing

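The number of members moved most with the limits, to 103 at a minimum of 10 FPKM in each eight-cell library, 27 at 40 FPKM and 28 at an absolute log2 ratio of at most 0.5. Under the other alternatives it lay between 42 and 77, and with median-ratio scaling 53 of the 56 members were kept among 63. The members' median log2 ratio between the eight-cell libraries (0.47) was 0.52 with median-ratio scaling, 0.46 with a pseudocount of 1, and 0.42 over the members with a gene name, which have 1 transcript per gene. Of these 34 members, 30 were higher in IVF-8c, and with the scaling 49 of 56 were. The medians over IVF-2c depended most on the pseudocount. With a pseudocount of 1 they were 5.51 for IVF-8c and 5.24 for SCNT-8c, with the scaling 8.13 and 7.86, and without transcripts listed at 0 in IVF-2c 7.34 and 7.00. The ratio of XM_013967651.1 between the eight-cell libraries changed sign with the scaling, from -0.03 to 0.02. On the highest matched transcript of each gene in place of the sum, 31 genes met the rule in place of 30, with the 25 genes of 1 matched transcript counted in both. Over all gene lists, 60 transcripts, 4 of them members, were more than 4-fold higher in both eight-cell libraries, and 102 when a log2 ratio of 1 was enough. No paired analysis was possible because no result comes from a test and each embryo condition has 1 library. The depth is unknown, so no counting error can be given for any level. The planned search of promoters for motifs, with its alternatives, was not run.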

Other observations

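The other gene lists held few or no members, but some of their transcripts were also higher in both eight-cell libraries than in IVF-2c. For comparison, 3.97% of all matched mRNAs were more than 4-fold higher in both. This share also counts mRNAs below 1 FPKM in every library, which could not pass. Of the 14235 mRNAs with 1 FPKM or more in any library, matched or not, 976 passed in both. Of the 572 transcripts of all lists, 493 reached 1 FPKM in a library. The lists were chosen with earlier results of these data known, so their counts are descriptions. Among epithelium and trophectoderm genes (16 of 49 matched, 19 transcripts) 5 of the 18 transcripts that were not members were higher in both. The second TM4SF1 transcript was among these, as were S100A11, a calcium-binding protein (77.6, 1653 and 717 FPKM in the order IVF-2c, IVF-8c, SCNT-8c), and KRT8, a keratin (0.217, 25.8 and 8.22 FPKM). Other genes of this list did not rise in this way. CDH1 was lower in both eight-cell libraries, but by less than 4-fold, at 19.3, 9.27 and 6.23 FPKM. ATP1B1 (28.3, 28.9 and 31.8 FPKM) and CLDN12 (34.2, 28.2 and 38.1 FPKM) changed less. The KRT7 and CLDN4 transcripts were below 1 FPKM in every library. Of 81 transcripts of splicing factors that were not members, 9 were higher in both, 3 of them from HNRNPA2B1. The counts were 10 of 109 for ribosome biogenesis, 4 of 38 for translation factors, 7 of 73 for RNA polymerase II and general transcription factors, 3 of 38 for the proteasome, 2 of 36 for chaperones, 1 of 28 for nuclear transport and 4 of 39 for nucleotide synthesis. EIF6, which acts in the maturation of the large ribosomal subunit, had 286.2 FPKM in IVF-8c and 212.5 in SCNT-8c against 18.2 in IVF-2c for its more abundant transcript.

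Of 35 transcripts of chromatin regulators none was higher in both eight-cell libraries, against 3.97% of all matched mRNAs. In this list 18 of 81 genes were matched, and 23 transcripts reached 1 FPKM in a library. It holds HMGN3 but not HMGN5, whose matched transcripts were each higher in both eight-cell libraries. Of 25 transcripts of maternal oocyte factors none was higher in both, against the same 3.97%. Of these 25 transcripts, 2 were lower in both, against 1.44% of all mRNAs. For lists of this size, a count of 0 is close to a share of 3.97%. The maternal oocyte factors summed to 19783 FPKM in two-cell embryos, 11488 in IVF-8c and 13640 in SCNT-8c. The BTG4 transcript held most of each sum, with 10551, 7830 and 9371 FPKM, so the sums mainly follow this transcript. For cumulus, sperm and fibroblast genes the numbers higher in both were 1 of 8, 1 of 6 and 3 of 20, against the same 3.97% of all matched mRNAs. Of the 30 names in the histone list 0 were matched, so no histone value is given.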
